A study of Homo sapiens with 18 samples.

Results

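Prohormone convertases and proteins of the secretory granule were followed in human melanoma cells overexpressing MAFG, a small MAF transcription factor, or GFP as the control. The 9 genes were found by their symbols among the 58870 genes of the count table, and each symbol matched a single gene. They were the endoproteases PCSK2, PCSK1, FURIN, PCSK5 and PCSK6, the PCSK2 chaperone SCG5, the carboxypeptidase CPE, and the granins SCG2 and CHGB. The group was chosen by a measured value: PCSK2 had the clearest difference in SKMEL28 cells, where it was far lower with MAFG. Every value of the 9 genes in that comparison is therefore a description, given without a test.

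RNA was sequenced from 6 conditions with 3 libraries each: WM164, SKMEL28 and A375 cells, established human melanoma lines, overexpressing either GFP or MAFG. The control cells thus carried a lentiviral cassette too. Per the study's methods, the vector used an EF1α promoter, the MAFG open reading frame had a Myc-DDK tag, and transduced cells were selected with blasticidin. The labels did not say whether the 3 libraries of a condition came from separate cultures, so p-values measure only the spread between these libraries, which may be technical.

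Many hormones, neuropeptides and growth factors are made as inactive precursors that proprotein convertases cut after basic residues. PCSK1 and PCSK2 work in the regulated secretory pathway, inside dense-core granules of endocrine and neural cells, where CPE then trims the basic residues and granins such as SCG2 and CHGB help to form the granule. FURIN, PCSK5 and PCSK6 work in the constitutive pathway, in the Golgi, at the cell surface or outside the cell, on growth factor precursors, receptors and metalloproteinases. Melanocytes arise from the neural crest, and the pigment cell hormone alpha-MSH is cut from the POMC precursor by PCSK1 and PCSK2.

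The bases just before the start sites of PCSK2 and PCSK5 are shown because PCSK2 was the member that led to this group and PCSK5 the one with the widest upward gap between MAFG and GFP libraries, and PCSK1 is shown for the single motif match beside a canonical start. The sequences come from the RefSeq promoter table (GRCh38.p14), which held 7 of the 9 genes in 12 windows of 250 bases. SCG2 and CHGB had no entry. They are written 5′ to 3′ on the strand of the gene, and bases inside an annotated exon were left out. Capitals mark a motif match.
PCSK2, before the canonical start, chr20:17226790-17227039, plus strand: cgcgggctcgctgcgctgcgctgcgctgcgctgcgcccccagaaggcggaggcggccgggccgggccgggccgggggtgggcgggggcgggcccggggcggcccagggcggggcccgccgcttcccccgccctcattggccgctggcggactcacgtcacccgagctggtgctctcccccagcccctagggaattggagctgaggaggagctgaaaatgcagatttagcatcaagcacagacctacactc
PCSK2, before the upstream start, chr20:17225857-17226106, plus strand: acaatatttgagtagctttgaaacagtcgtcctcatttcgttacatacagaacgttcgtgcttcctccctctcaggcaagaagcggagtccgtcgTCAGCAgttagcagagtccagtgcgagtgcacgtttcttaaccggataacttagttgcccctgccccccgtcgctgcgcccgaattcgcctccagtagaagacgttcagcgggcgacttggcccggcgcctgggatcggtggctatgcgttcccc
PCSK5, chr9:75890423-75890643, plus strand: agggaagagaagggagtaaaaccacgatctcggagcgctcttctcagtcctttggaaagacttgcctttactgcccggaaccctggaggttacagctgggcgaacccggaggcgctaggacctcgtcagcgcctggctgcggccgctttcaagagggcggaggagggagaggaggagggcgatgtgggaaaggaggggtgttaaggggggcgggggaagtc
PCSK1, before the canonical start, chr5:96433249-96433498, minus strand: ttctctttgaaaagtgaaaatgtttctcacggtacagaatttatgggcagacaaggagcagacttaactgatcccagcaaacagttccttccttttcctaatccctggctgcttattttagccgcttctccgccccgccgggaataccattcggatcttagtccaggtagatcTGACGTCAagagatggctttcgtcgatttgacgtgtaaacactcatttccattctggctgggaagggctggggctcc
Both strands were searched for TGAGTCA (the AP-1 and MAF core), TGCTGA (the outer arm of a MAF recognition element), the E-boxes CACGTG and CATGTG that MITF can bind, the cAMP response element TGACGTCA, and TTCAGCACC (one arm of the site of the repressor REST). Over all 35116 RefSeq windows of this length, the share with a match was 4.2%, 14%, 6.34%, 9.42%, 1.65% and 0.288% in that order. The upstream PCSK2 window held 1 TGCTGA match on its minus strand, beginning 155 bases before the start. The canonical PCSK1 window held 1 TGACGTCA match, beginning 77 bases before the start. These were the only matches in the 12 windows, and they did not overlap another motif. Binding was not measured in these libraries, and a match or its absence describes the letters alone.

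Library depth, the sum of counts per library, ranged from 20122172 to 39025042 with a median of 31061375. MAFG mRNA was higher in every MAFG library than in every GFP library of its line, with a log2 fold change of 1.04 ± 0.09 (SE) for WM164, 0.64 ± 0.10 for SKMEL28 and 0.80 ± 0.17 for A375. The adjusted p was 6.37e-08, 0.000128 and 0.0655 in that order (edgeR), so that the A375 difference missed the threshold of 0.05. In TPM, the deposited abundance corrected for transcript length and depth, the gap in this mRNA was wider. Its mean TPM with GFP and MAFG was 2.89 and 24.5 for WM164, 3.96 and 17.0 for SKMEL28, and 4.22 and 25.2 for A375. A375 MAFG replicate 1 stood apart from replicates 2 and 3, with a mean chi-square per gene of 68.7 and 96.7 against 15.8 between the other two. Of 9 melanocyte lineage markers, MLANA, TYR and DCT had at most 1 count in any A375 library, and all 3 were abundant in both other lines. TYRP1 went otherwise, with a mean of 0.0777 CPM in WM164 GFP and 0.631 CPM in A375 GFP libraries. The summed level of the 9 markers was 4724 to 5060 CPM in WM164 GFP and 2661 to 2796 CPM in WM164 MAFG libraries. It was 4860 to 5127 and 4246 to 4477 CPM in SKMEL28 GFP and MAFG libraries, and 38.5 to 44.2 and 122 to 179 CPM in A375 GFP and MAFG libraries. Within the A375 sum, SOX10 had a mean of 8.85 CPM with GFP and 114 CPM with MAFG, and MITF 28.6 and 27.4 CPM. The part of these shifts in the results below was not tested. KRT5, KRT14 and KRT1, PTPRC and CD3E, and CDH5, which mark keratinocytes, leukocytes and endothelium, stayed at trace levels: summed over all 4 keratinocyte markers the highest library had 0.825 CPM, and over the 3 endothelial markers 1.03 CPM. PTPRC and CD3E had at most 3 counts in every library, the floor used here. CD68, which is not specific to leukocytes, stood at 129 and 54.7 CPM in WM164 GFP and MAFG. It stood at 358 and 230 CPM in SKMEL28 GFP and MAFG and at 47.7 and 55.3 CPM in A375 GFP and MAFG.

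PCSK2, the endoprotease that completes the cutting of many peptide hormone precursors, was expressed mainly in SKMEL28 cells. It lies on chromosome 20 at 17226107 to 17484578 of GRCh38, on the plus strand. The SKMEL28 GFP libraries held 2634, 1810 and 2543 counts and the MAFG libraries 115, 98 and 84. Scaled to library size as CPM, this was 88.2 ± 0.758 CPM (SD, n = 3) with GFP and 3.50 ± 0.343 CPM with MAFG. The 3 GFP libraries ranged from 87.7 to 89.1 CPM, far above all MAFG libraries. The log2 fold change was -4.65 ± 0.09 (SE), and the pooled counts differed 25.1-fold with a 95% interval of 22.3 to 28.2. All intervals of count ratios here are exact and cover counting error only. In bulk RNA, fewer cells that express a gene and less RNA per cell cannot be told apart.

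In WM164 cells PCSK2 was far lower, with 18, 19 and 13 counts in the GFP and 6, 14 and 8 in the MAFG libraries. One MAFG library (14 counts, 0.517 CPM) lay above the lowest GFP library (13 counts, 0.514 CPM), so the groups overlapped. The log2 fold change of -0.88 ± 0.54 did not pass the test (adjusted p = 0.236, edgeR quasi-likelihood test with Benjamini-Hochberg adjustment over 15919 genes), with a 95% interval of -1.93 to 0.17. In A375 cells all 6 libraries were at 0 counts. The order of the conditions was SKMEL28 GFP, SKMEL28 MAFG, WM164 GFP, WM164 MAFG and A375, and of the neighbors in this order only the WM164 conditions and the A375 conditions were not separate.

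PCSK1, the convertase that makes the first cuts in precursors such as POMC, was highest in A375 cells and rose in WM164 cells. The WM164 GFP libraries had 5, 4 and 2 counts and the MAFG libraries 18, 17 and 12. The groups did not overlap, and the log2 fold change was 2.01 ± 0.61 (edgeR, adjusted p = 0.0181). PCSK1 entered this fit through its MAFG libraries alone and could only appear as higher. The call was lost without GFP replicate 2, GFP replicate 3, MAFG replicate 1 or MAFG replicate 2, with adjusted p of 0.0639, 0.09, 0.0768 and 0.0768 at log2 fold changes of 2.01, 1.77, 1.88 and 1.89. A375 cells had 75, 86 and 51 counts with GFP and 91, 148 and 116 with MAFG. These groups overlapped, and the log2 fold change of 0.64 ± 0.32 did not pass (edgeR, adjusted p = 0.887). SKMEL28 libraries held 8, 2 and 7 counts with GFP and 2, 8 and 0 with MAFG, too few for the fit. A long noncoding RNA overlaps the whole of PCSK1 on the other strand, and its reads could not be told apart if counting ignored strand.

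SCG5 encodes 7B2, the protein that keeps PCSK2 inactive until it reaches the granule and is needed for its maturation. It was at trace levels in all 3 lines. The SKMEL28 GFP libraries, where PCSK2 was abundant, held 8, 3 and 1 counts of SCG5, and the MAFG libraries 13, 0 and 4. WM164 cells had 4, 15 and 0 counts with GFP and 9, 3 and 10 with MAFG, and did not enter the fit. The highest level was in A375 cells, with 13, 30 and 21 counts with GFP and 17, 21 and 19 with MAFG, a log2 fold change of -0.28 ± 0.60 (edgeR, adjusted p = 0.997). Groups overlapped in each line. SCG5 lies inside the read-through gene ARHGAP11A-SCG5 and overlaps SCG5-AS1 on the other strand, so its counts are uncertain.

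**Figure D1:**
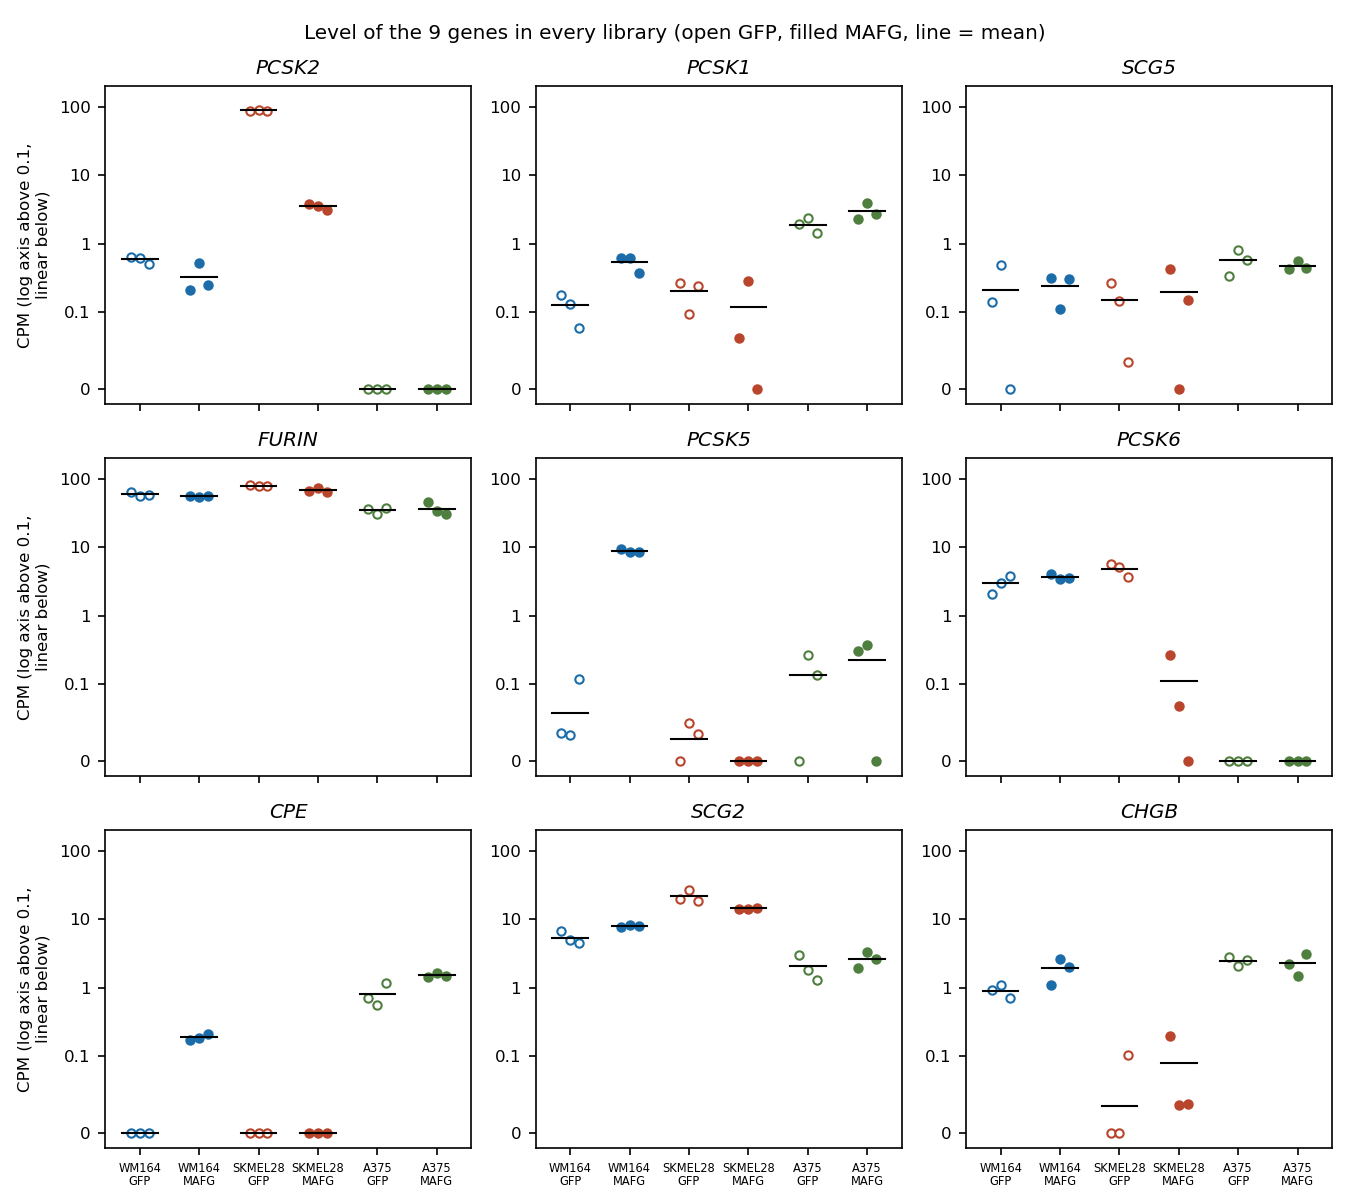
Level of each of the 9 genes in every library, in CPM on an axis that is logarithmic above 0.1 and linear below, by condition. Open points are GFP libraries, filled points MAFG libraries and the black line their mean. The 3 SKMEL28 GFP points of PCSK2 sit near 88.2 CPM and the MAFG points near 3.50 CPM, and the WM164 MAFG points of PCSK5 sit between 8.5 and 9.41 CPM, above all 15 other libraries.

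FURIN, the widely expressed convertase of the constitutive pathway, was abundant in all libraries. WM164 libraries had 1778, 1696 and 1449 counts with GFP and 1583, 1482 and 1786 with MAFG, or 59.0 ± 3.91 and 55.1 ± 0.315 CPM. Each MAFG library was below each GFP library after scaling, yet the log2 fold change of -0.10 ± 0.07 did not pass (edgeR, adjusted p = 0.292), with an interval of -0.23 to 0.03. A375 libraries had 1403, 1118 and 1341 counts with GFP and 1802, 1263 and 1324 with MAFG, and overlapped. Their log2 fold change was 0.06 ± 0.15 (edgeR, adjusted p = 0.997). In SKMEL28 cells, 2472, 1593 and 2235 counts with GFP stood against 1966, 2041 and 1726 with MAFG, that is 79.3 ± 2.72 and 67.9 ± 4.65 CPM. These groups did not overlap, and the log2 fold change was -0.22 ± 0.06.

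PCSK5 cuts precursors such as those of TGF-beta family members. It was near 0 in every condition except WM164 cells overexpressing MAFG. The WM164 GFP libraries held 1, 1 and 3 counts and the MAFG libraries 269, 232 and 275. The MAFG level was 8.83 ± 0.508 CPM. The log2 fold change was 7.10 ± 0.32 (edgeR, adjusted p = 1.07e-11), and the ratio of the pooled counts was 147 with a 95% interval of 62.8 to 454. Over the 6 fits that left out 1 library it ranged from 6.79 to 7.83 on the log2 scale. PCSK5 entered the WM164 fit through its MAFG libraries alone and could only appear as higher, so the direction is a description. A375 libraries had 0, 10 and 5 counts with GFP and 12, 14 and 0 with MAFG, which overlapped. The SKMEL28 libraries had 0, 1 and 1 counts with GFP and none with MAFG, and a group at 0 was taken to allow up to 3 counts over the group.

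PCSK6, also called PACE4, is held at the cell surface and in the extracellular matrix and cuts growth factor precursors there. In SKMEL28 cells its pattern was like that of PCSK2. The GFP libraries had 172, 105 and 106 counts and the MAFG libraries 8, 2 and 0. The level was 4.85 ± 1.07 CPM with GFP and 0.113 ± 0.138 CPM with MAFG, and the pooled counts differed 40.8-fold with an interval of 21.9 to 85.7. The log2 fold change was -5.31 ± 0.50, and it ranged from -6.87 without MAFG replicate 1 to -4.78 without MAFG replicate 3. PCSK6 entered this fit through its GFP libraries alone and could only appear as lower. WM164 cells held a like amount with either vector, 59, 92 and 95 counts with GFP and 115, 94 and 116 with MAFG. These groups overlapped, and the log2 fold change of 0.32 ± 0.23 did not pass (edgeR, adjusted p = 0.33), with an interval of -0.13 to 0.77. All A375 libraries were at 0. PCSK6 shares 5499 bases of its strand with SNRPA1 and overlaps PCSK6-AS1 on the other strand, so part of its reads is uncertain.

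Per length, the mixture of the 5 convertase mRNAs differed between lines and with MAFG. On the scale of TPM (the deposited abundance, which corrects for transcript length and depth), SKMEL28 GFP cells had 27.5 ± 4.68 of PCSK2 and 15.9 ± 1.08 of FURIN. PCSK2 thus made up 61.3% ± 3.94 (SD, n = 3) of the summed TPM of the 5 genes, and FURIN 35.9% ± 3.61. In SKMEL28 MAFG cells PCSK2 was at 1.39 ± 1.08 TPM, or 9.89% ± 6.82 of the sum. FURIN made up 88.9% ± 7.76 there, while its own level was lower with MAFG, at 11.9 ± 1.13 TPM. The sum was 44.6 ± 5.17 TPM with GFP and 13.5 ± 1.78 TPM with MAFG. One MAFG library carried most of the spread of PCSK2, with 2.62 TPM against 0.91 and 0.63, although its counts were close to those of the others. By TPM the PCSK2 means differed 19.8-fold and the PCSK6 means, 1.14 and 0.16, 7.12-fold, both less than by counts.

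In WM164 cells FURIN made up 88.6% ± 1.73 of the convertase TPM with GFP and 78.7% ± 1.28 with MAFG. PCSK5 went from 0.0746% ± 0.0647 to 9.96% ± 1.49, and PCSK6 stood at 8.93% ± 2.96 and 8.28% ± 1.54. In A375 cells FURIN made up 91.1% ± 5.15 with GFP and 90.4% ± 4.98 with MAFG. PCSK1 was next with MAFG, at 9.28% ± 4.94, and PCSK2 and PCSK6 were at 0.

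**Figure D2:**
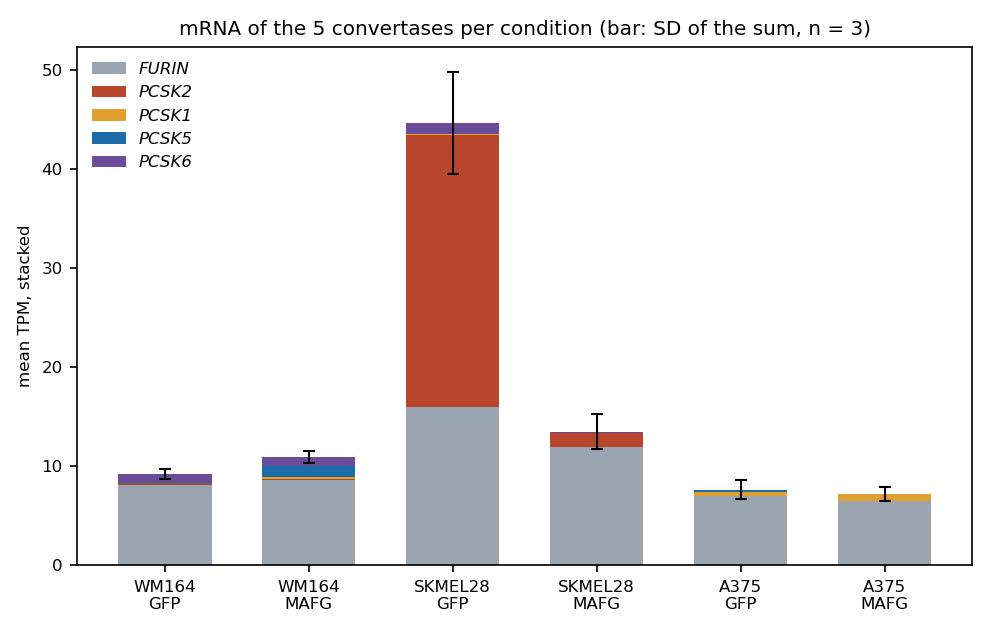
Mean TPM of the 5 convertases, stacked, in each condition, with the SD of their sum over 3 libraries as the error bar. The SKMEL28 GFP column reaches 44.6 TPM, most of it PCSK2, and the SKMEL28 MAFG column 13.5 TPM, most of it FURIN.

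CPE, the carboxypeptidase that removes the basic residues left by the convertases, was not detected in SKMEL28 cells, with 0 counts in each of the 6 libraries. WM164 GFP libraries were also at 0, and the MAFG libraries held 5, 5 and 7 counts. The groups did not overlap, and against the floor of 3 counts over the group the level with MAFG was at least 5.37-fold higher. The gene was under the count filter. Without the filter its log2 fold change of 5.49 ± 2.06 passed (edgeR, adjusted p = 0.0408). With every GFP library at 0 it could only appear as higher. A375 cells had the highest level, with 27, 21 and 42 counts with GFP and 56, 62 and 64 with MAFG. Here each MAFG library lay above each GFP library, and the log2 fold change of 0.89 ± 0.43 did not pass (edgeR, adjusted p = 0.855).

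SCG2, the precursor of the peptide secretoneurin, had a higher mean TPM than CHGB and SCG5 in SKMEL28 cells (7.79 ± 1.95 with GFP) and WM164 cells (1.3 ± 0.141 with GFP). WM164 libraries had 188, 151 and 116 counts with GFP and 222, 225 and 256 with MAFG. The groups were apart, and SCG2 rose by a log2 fold change of 0.55 ± 0.15 (edgeR, adjusted p = 0.0105). Without GFP replicate 3 the value was 0.44 (adjusted p = 0.0568). In SKMEL28 cells the order was the opposite, with 586, 542 and 546 counts with GFP and 426, 400 and 395 with MAFG. The level was 21.7 ± 4.34 CPM with GFP and 14.5 ± 0.321 CPM with MAFG, the libraries did not overlap, and the log2 fold change was -0.57 ± 0.12. A375 libraries had 117, 67 and 47 counts with GFP and 78, 127 and 113 with MAFG. They overlapped, with a log2 fold change of 0.37 ± 0.37 (edgeR, adjusted p = 0.997).

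CHGB, chromogranin B, binds calcium and cargo inside the granule. It rose in WM164 cells, from 26, 33 and 18 counts with GFP to 32, 71 and 66 with MAFG. After scaling, the lowest MAFG library (1.12 CPM) was just above the highest GFP library (1.09 CPM). The log2 fold change was 1.07 ± 0.38 (edgeR, adjusted p = 0.0408). The call was lost without GFP replicate 1, GFP replicate 3, MAFG replicate 2 or MAFG replicate 3 (adjusted p of 0.0816, 0.127, 0.213 and 0.0999 at log2 fold changes of 1.08, 0.92, 0.79 and 1.02). A375 libraries held 107, 78 and 91 counts with GFP and 90, 56 and 136 with MAFG, and overlapped. Their log2 fold change was -0.11 ± 0.33 (edgeR, adjusted p = 0.997). SKMEL28 cells had 0, 0 and 3 counts with GFP and 6, 1 and 1 with MAFG.

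Counted over the group, 7 of the 9 genes entered the WM164 fit, and PCSK1, PCSK5, SCG2 and CHGB rose while none fell. Among all 15919 genes tested in WM164 cells, 31.8% passed in either direction and 16.2% passed upward. PCSK1, PCSK5 and CHGB also had a log2 fold change above 1, as did 4.94% of all genes tested. PCSK1 and PCSK5 had 10 or more counts only in their MAFG libraries, so they entered the fit through that group alone and could only appear as higher. The median log2 fold change of the 7 genes was 0.55. Without WM164 GFP replicate 3, 1 member passed, and without WM164 MAFG replicate 2, 2 did.

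In A375 cells 6 of the 9 genes entered the fit and 0 passed. None of the 6 had an unadjusted p under 0.05 by edgeR or DESeq2, nor did the 1 member that limma on TPM could test, and 0.843% of all 15779 genes tested passed. CPE was the only member whose A375 libraries did not overlap, against 12.8% of all genes tested. The count stayed at 0 without A375 MAFG replicate 1. In SKMEL28 cells 4 genes, PCSK2, PCSK6, SCG2 and FURIN, entered the fit, and in all 4 the MAFG libraries lay below the GFP libraries, as they did in 21.9% of all 15523 genes tested. PCSK6 entered this fit through its GFP libraries alone and could only appear as lower. PCSK2 and PCSK6 had a log2 fold change below -1, and so did 4.2% of all genes tested. These counts come from the comparison that chose the group, and nothing is read from them.

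**Figure D3:**
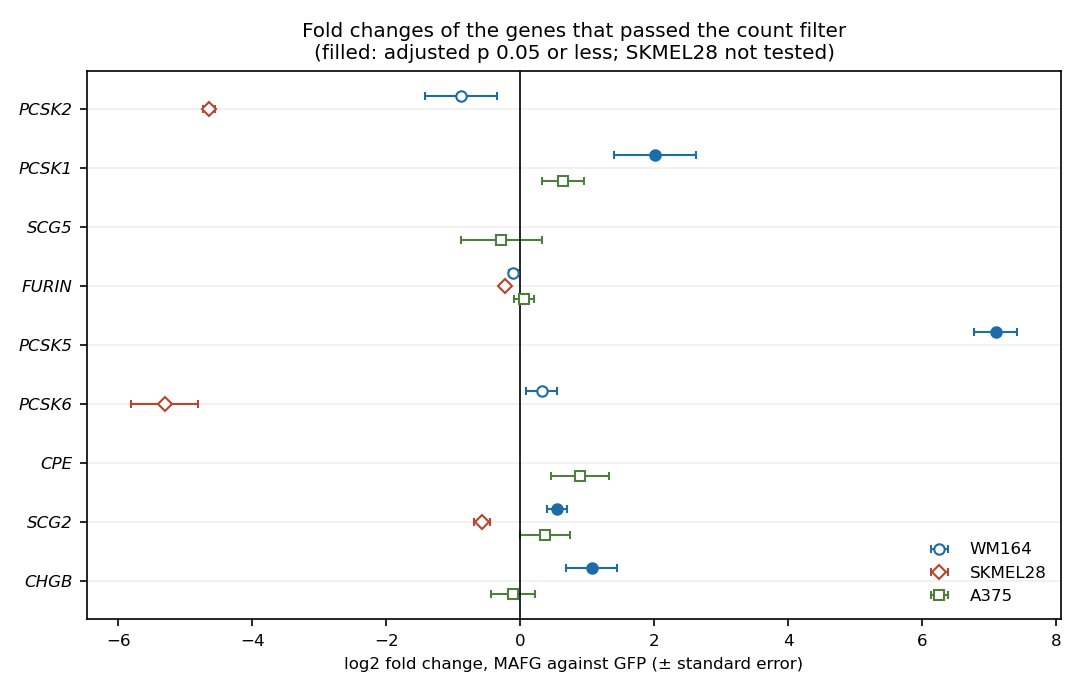
Log2 fold change of MAFG against GFP with its standard error for each gene that entered the fit, by line (circles WM164, diamonds SKMEL28, squares A375). Filled symbols had an adjusted p of 0.05 or less, and SKMEL28 values were not tested. PCSK5 stands at 7.10 in WM164 and PCSK2 and PCSK6 at -4.65 and -5.31 in SKMEL28, with all other values between -0.88 and 2.01.

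The response to MAFG was then compared between WM164 and A375 cells in one model of all 18 libraries, in which 9.21% of 18767 genes passed. A value could be had for 7 members, since PCSK2 and PCSK6 were at 0 in A375 cells. PCSK5 passed, with the WM164 log2 fold change larger by 6.42 ± 1.3 (edgeR, adjusted p = 0.00301). It had at most 14 counts in any library outside WM164 MAFG, so it entered this fit through the group where it was high, and the direction is a description. The difference was 5.46 without A375 GFP replicate 2, which alone held 10 of the 15 A375 GFP counts, and then missed the threshold (adjusted p = 0.0559). CPE passed with a difference of 4.74 ± 1.38 (edgeR, adjusted p = 0.0463), computed with WM164 GFP libraries at 0, and it missed the threshold in every fit that left out 1 library (adjusted p of 0.0547 to 0.104). The differences for PCSK1 and CHGB, 1.37 ± 0.81 and 1.18 ± 0.67, did not pass (edgeR, adjusted p = 0.368 and 0.341), with intervals of -0.23 to 2.97 and -0.14 to 2.49. Differences that involve SKMEL28 cells were not tested.

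The lines differed before MAFG was added. Between A375 and WM164 cells overexpressing GFP, 7 of the 9 genes differed, in a comparison in which 71.5% of all genes tested passed. The count is near that share and is not read as a trait of these genes. Higher in A375 cells were PCSK1, with a log2 difference of 3.82 ± 0.63 (edgeR, adjusted p = 1.59e-05), CHGB, with 1.44 ± 0.49 (adjusted p = 0.0121), and CPE, at least 22.6-fold. Lower in A375 cells were PCSK2, at least 22.2-fold, PCSK6, at least 109-fold, SCG2, with a log2 difference of -1.39 ± 0.25 (adjusted p = 3.66e-05), and FURIN, with -0.76 ± 0.11 (adjusted p = 4.88e-06). The bounds were computed against 3 counts over the group at 0. SCG5 and PCSK5 did not pass, with 1.40 ± 0.98 and 1.12 ± 1.11.

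The 105 other genes of the pathway formed 7 lists, and 104 of them were in the table. In WM164 cells 57 were tested, of which 22 rose and 13 fell, a share of passing genes to be read against the 31.8% of all genes tested. In SKMEL28 cells, in the comparison that chose the group, 59 were tested, with 8 higher and 16 lower past the threshold, against 29.9% of all genes tested. In A375 cells 67 were tested and 1 rose, beside 0.843% of all genes tested that passed.

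Among the other convertases and the PCSK1 inhibitor, 4 genes were tested in WM164 cells, and 2 rose. PCSK1N, which encodes the inhibitor proSAAS, had 3, 29 and 4 counts with GFP and 70, 51 and 38 with MAFG. Its libraries were apart, with a log2 fold change of 2.11 ± 0.59 (edgeR, adjusted p = 0.00984), but the value was 3.75 without GFP replicate 2, and the call was lost without GFP replicate 3 or MAFG replicate 1 (adjusted p = 0.0517 and 0.0565). In SKMEL28 cells PCSK1N had 209, 130 and 174 counts with GFP and 51, 58 and 44 with MAFG, a log2 fold change of -1.83 ± 0.20 (adjusted p = 4.72e-06).

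Of the peptide trimming and amidation genes, 5 were tested in WM164 cells, with 2 higher, 1 lower and a median log2 fold change of -0.03. PAM, the enzyme that amidates peptide ends, had 77.0 ± 4.4 CPM with GFP and 166 ± 9.82 CPM with MAFG (log2 fold change 1.10 ± 0.06, adjusted p = 2.15e-10). QPCT, which closes peptide ends as pyroglutamate, went from 140 ± 8.67 to 40.9 ± 3.19 CPM (log2 fold change -1.77 ± 0.07, adjusted p = 1.67e-12). In SKMEL28 cells 1 of 5 rose and 3 fell, none of them by more than 1 on the log2 scale.

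Among the other granins and genes of granule formation, 6 were tested in WM164 cells, with 2 higher and 2 lower. VGF, a granin-like precursor, rose from 27056, 23421 and 20053 counts with GFP to 52045, 50460 and 54802 with MAFG (log2 fold change 1.08 ± 0.07, adjusted p = 2.31e-09). In SKMEL28 cells 0 of 4 rose, and ICA1 fell by 1.70 on the log2 scale (edgeR, adjusted p = 0.013). That call was lost without GFP replicate 2 or MAFG replicate 1 (adjusted p = 0.0875 and 0.0554). ICA1 had 36, 47 and 36 counts with GFP and 8, 13 and 19 with MAFG there. It entered the SKMEL28 fit through its GFP libraries, so the direction is a description. CHGA, chromogranin A, had at most 15 counts in any library.

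The list for granule docking and exocytosis had 16 genes tested in WM164 cells, of which 5 rose and 4 fell. UNC13A, a priming factor for vesicle fusion, had 270, 261 and 195 counts with GFP and 1191, 1265 and 1660 with MAFG, a log2 fold change of 2.42 ± 0.10 (adjusted p = 4.63e-12). The synaptotagmins SYT11 and SYT7 rose by 1.20 ± 0.22 and 1.12 ± 0.34 (adjusted p = 0.000403 and 0.0172). For SYT7 the call was lost without GFP replicate 3 or MAFG replicate 3 (adjusted p = 0.0615 and 0.0785). SYT5, CADPS2 and RAB27A, which moves melanosomes as well as secretory vesicles, had log2 fold changes of -1.86 ± 0.44, -1.43 ± 0.27 and -1.10 ± 0.07 (adjusted p = 0.00329, 0.000525 and 1.03e-09). SYT5 had 34, 55 and 30 counts with GFP and 14, 7 and 13 with MAFG. It entered the WM164 fit through its GFP libraries, so the direction is a description. In SKMEL28 cells 3 of 16 rose and 2 fell, and RIMS2, a scaffold of the release site, went from 154, 121 and 126 counts to 11, 19 and 25 (log2 fold change -2.96 ± 0.31, adjusted p = 3.03e-06). In A375 cells the 1 gene that rose was SYTL5, an effector of RAB27A, with 0 counts in each GFP library and 149, 230 and 208 with MAFG, at least 180-fold higher (edgeR, adjusted p = 0.000216). SYTL5 entered that fit through its MAFG libraries alone and could only appear as higher. Without A375 MAFG replicate 1, 6 companion genes passed in A375 cells.

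Precursors that the regulated convertases could cut mostly had too few counts to test: of 24, the filter kept 4 for WM164, 7 for SKMEL28 and 6 for A375. POMC was at 0 in all 18 libraries. UCN2, the precursor of urocortin 2, rose in WM164 cells from 34.4 ± 6.82 to 85.4 ± 5.35 CPM (log2 fold change 1.31 ± 0.10, adjusted p = 1.78e-08). Of 20 constitutive-pathway substrates tested there, 7 rose and 5 fell. INHBA, the activin A subunit, had 38, 45 and 38 counts with GFP and 864, 760 and 1010 with MAFG (log2 fold change 4.36 ± 0.12, adjusted p = 1.36e-14), BMP2 rose by 2.36 ± 0.42 (adjusted p = 0.000286) and the membrane metalloproteinase MMP15 by 1.14 ± 0.08 (adjusted p = 2.28e-09). BMP2 had 16, 9 and 7 counts with GFP and 59, 44 and 73 with MAFG, and entered the fit through its MAFG libraries. The melanosome protein PMEL fell by 1.46 on the log2 scale (adjusted p = 2.66e-11) and the receptor MET by 1.3 (adjusted p = 6.78e-07). In SKMEL28 cells 3 of 21 substrates rose and 7 fell. INHBA rose there too, by 1.91 ± 0.26 (adjusted p = 3.71e-05), BDNF by 1.98 ± 0.31 (adjusted p = 0.000175), and MET fell by 1.68 (adjusted p = 7.54e-11). Of 8 transcription factors of neuroendocrine genes, 2 were tested in WM164 cells and both passed as higher, by very different amounts. NKX2-2 went from 2, 7 and 3 counts to 96, 65 and 56 (log2 fold change 4.08 ± 0.49, adjusted p = 4.34e-06), and had 10 or more counts there only in its MAFG libraries, through which it entered the fit. REST, which represses neuronal and neuroendocrine genes and is named here after its values were seen, differed by 0.27 ± 0.06 on the log2 scale (edgeR, adjusted p = 0.00242).

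**Figure D4:**
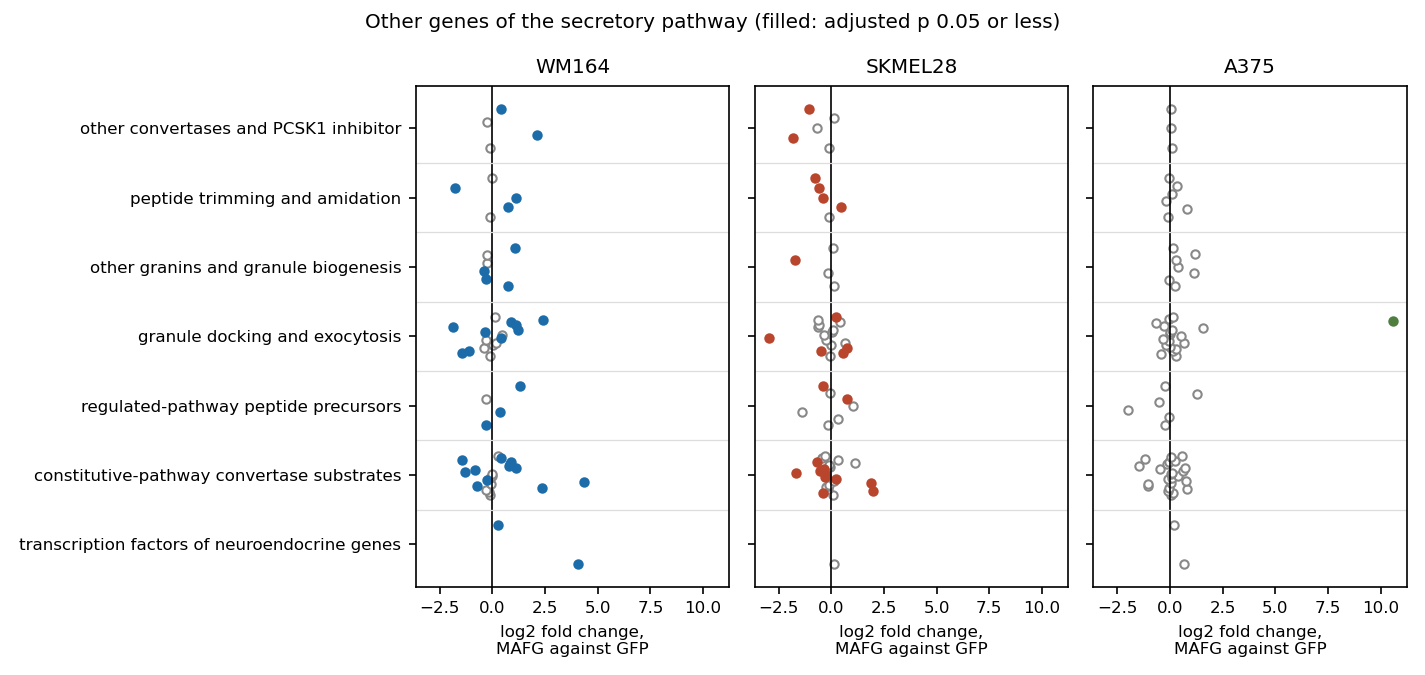
Log2 fold change of MAFG against GFP of each tested gene of the 7 companion lists in WM164, SKMEL28 and A375 cells; filled points had an adjusted p of 0.05 or less. Filled points lie on both sides of 0 in WM164 and SKMEL28 cells, and A375 cells have a single one, SYTL5 at 10.57, a fitted value against GFP libraries at 0.

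The genes whose level was most like that of PCSK2 over the 18 libraries were MAPK4, SLC6A17, CNNM1, CD36 and CEMIP, with Pearson correlations of log2 CPM of 0.991, 0.984, 0.979, 0.977 and 0.974 among 18766 genes ranked. These are descriptions over libraries that share lines, depth and treatment, and the high value rests on the SKMEL28 GFP libraries. MAPK4, an atypical MAP kinase, had a mean of 14.7 CPM in SKMEL28 GFP and 1.22 CPM in SKMEL28 MAFG cells. CD36, a fatty acid receptor, had 11.0 and 0.482 CPM, and SLC6A17, a vesicular amino acid transporter, 12.5 and 1.38 CPM. Of the 5 genes, CEMIP, which takes part in breaking down hyaluronan, was the only one clearly expressed in the other lines, at 4.26 CPM in WM164 GFP and 2.04 CPM in A375 GFP cells against 110 and 23.7 CPM in SKMEL28 GFP and MAFG cells.

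**Figure D5:**
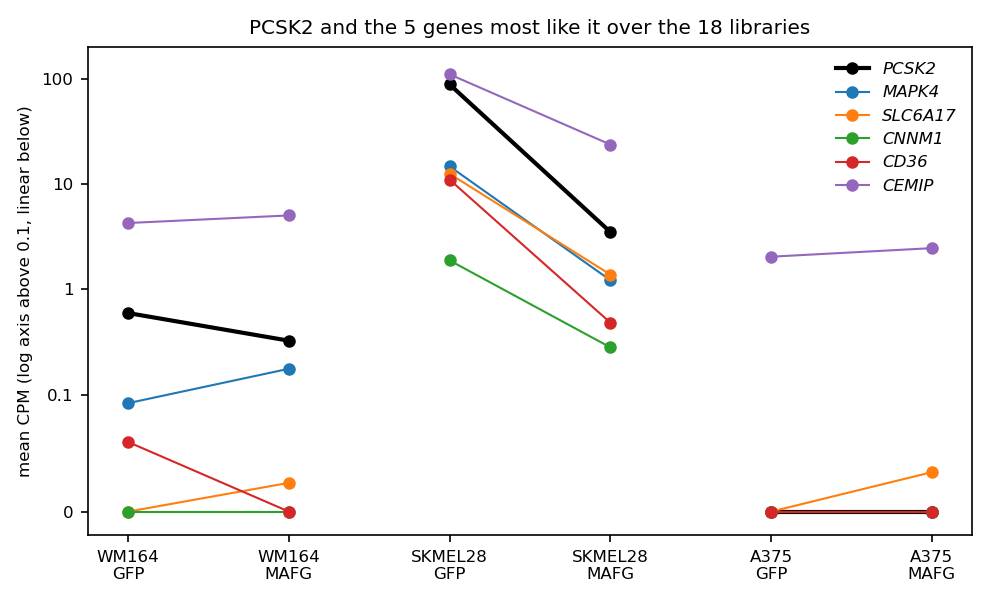
Mean level of PCSK2 (black) and of the 5 genes most like it in each condition, in CPM on an axis that is logarithmic above 0.1 and linear below; lines join GFP and MAFG of a line. Each gene is highest in SKMEL28 GFP cells, where PCSK2 is at 88.2 CPM, and lower in SKMEL28 MAFG cells.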

How the data were processed

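The 9 genes, the companion lists and the tests were chosen with earlier results of these data known. Per the study's methods and the submitters' processing notes, the authors trimmed reads with cutadapt 1.8.1, aligned them to GRCh38 with STAR 2.7.7a and took reads with a unique alignment into gene counts by featureCounts. These deposited counts are whole numbers without normalization. The deposited TPM values were made by the authors, and RSEM 1.3.0 is listed in the notes. The labels name a library kit without strand and the methods a strand-specific one, and whether counting used strand is not given in the sources used here. All sample columns were assigned, and 0 were left unused.

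Counts were tested per line on 6 libraries with edgeR 4.0.16 (TMM, filterByExpr, quasi-likelihood F test) in R 4.3.3, and p-values were adjusted by Benjamini-Hochberg over every gene in the fit. A gene passed if the adjusted p did not exceed 0.05 and was called if the absolute log2 fold change was also above 1. The standard error is the absolute log2 fold change divided by the square root of F. CPM used TMM over 18 libraries. Alternatives were DESeq2 1.42.0, its size factors, other count filters, a block, leaving out libraries, a single model of all libraries, and limma 3.58.1 on TPM. The procedure was tested on simulated data. Named companion genes were called with non-overlapping libraries, at most 3 per list, line and direction. Positions are from GENCODE 44, promoters from RefSeq. Library depth limits genes with few counts, where intervals cover counting error only. 1 companion gene was not analysed here, and 1 companion and 1 marker gene are not reported.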

Additional observations from a re-analysis of the deposited data

Results flagged for a closer look

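The response of PCSK5 to MAFG differed between WM164 and A375 cells by 6.42 on the log2 scale (edgeR, adjusted p = 0.00301), a call lost without A375 GFP replicate 2 (adjusted p = 0.0559), the library with 10 of the 15 A375 GFP counts. PCSK5 entered this fit through WM164 MAFG, the group where it was high, and the direction is a description. The response of CPE differed between the same lines by 4.74 (edgeR, adjusted p = 0.0463), a fitted value with WM164 GFP libraries at 0 counts. That call was lost in every fit that left out 1 library (adjusted p of 0.0547 to 0.104) and with the replicate block (adjusted p = 0.138).

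For the following genes every MAFG library lay on one side of the GFP libraries in one line and on the opposite side in another, and the difference between the lines was not tested for this purpose. SCG2 had a log2 fold change of 0.55 in WM164 and -0.57 in SKMEL28 cells. PCSK1N had 2.11 in WM164 cells, where it entered the fit through its MAFG libraries, and -1.83 in SKMEL28 cells. PAM had 1.10 for WM164, -0.41 for SKMEL28 and 0.10 for A375. SYT5 had -1.86 in WM164 cells, where it entered the fit through its GFP libraries, and 1.57 in A375 cells. CADPS2 had -1.43 for WM164, 0.58 for SKMEL28 and 0.30 for A375. UCN2 had 1.31 in WM164 and -0.37 in SKMEL28 cells. MMP15 had 1.14 for WM164, -0.36 for SKMEL28 and -0.47 for A375. The A375 values of PAM, SYT5, CADPS2 and MMP15 did not pass (edgeR, adjusted p = 0.997, 0.389, 0.849 and 0.826). Libraries did not overlap in 12.8% of all genes tested in A375 cells. In SKMEL28 cells the MAFG libraries lay below the GFP libraries in 21.9%. The share of all genes with opposite order in 2 lines was not computed.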

How the results depend on the processing

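Of 750 values of single genes under an alternative, 686 kept their direction and their side of the threshold (or, where no test was made, moved by less than their error), and 13 changed direction. Those were values near 0. FURIN was at 0.08 and 0.07 in WM164 cells and at -0.09 and -0.08 in A375 cells by limma on log2(TPM + 0.1) and log2(TPM + 1), and its difference between these lines at 0.16 and 0.15. The median of all genes by these fits was itself 0.163 and 0.137 in WM164 and -0.119 and -0.103 in A375 cells. Without A375 GFP replicate 2, FURIN was at -0.04 and SCG5 at 0.03 in A375 cells. Without A375 MAFG replicate 1 FURIN was at -0.10 there and 0.02 between the lines, and without A375 MAFG replicate 2 CHGB was at 0.12. Between the lines SCG5 was at -0.10 without WM164 GFP replicate 3 and SCG2 at -0.20 without A375 GFP replicate 1.

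The 4 members that passed in WM164 cells became 2 with at least 10 counts in every library, a filter that drops genes low in one group, and 1 with either TPM fit, where 2 members were tested. Leaving out 1 library gave 1 to 3. The 2 members below -1 in SKMEL28 cells became 1 on log2(TPM + 1) and 1 under the filter of 10 counts. The 2 differences between WM164 and A375 cells became 1 with DESeq2, 1 without a filter, and 0 with at least 10 counts or with either TPM fit. Leaving out 1 library gave 0 to 1. The 7 differences between GFP cells became 2 with at least 10 counts, and 3 and 2 with log2(TPM + 0.1) and log2(TPM + 1). Without 1 library, SCG5 and CHGB in A375 cells ranged from -0.56 to 0.03 and from -0.42 to 0.12, and the differences between WM164 and A375 from -0.10 to 1.98 for SCG5, -0.20 to 0.44 for SCG2 and -0.28 to 0.02 for FURIN. In the model of all 18 libraries SCG2, CHGB and SYT7 in WM164 cells missed the threshold (adjusted p = 0.112, 0.162 and 0.178), PCSK1 did without a filter (adjusted p = 0.0663), and MET in WM164 cells did by the TPM fits (adjusted p = 0.0698 and 0.0567).

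All genes called in WM164 cells numbered 1105, and 734 with at least 10 counts, 617 on log2(TPM + 0.1) and 384 on log2(TPM + 1). In SKMEL28 cells 736 were called, and 411 and 226 by the TPM fits. The share called upward was 71.1% in WM164 and 37.1% in SKMEL28 cells, against 81.0% and 81.8%, and 21.4% and 19.5%, by the TPM fits. The 105 called in A375 cells became 181 with DESeq2, 311 in the model of all libraries, 216 without a filter, 64 with at least 10 counts, 15 and 19 by the TPM fits, and 55 to 153 without 1 library. Companion genes past the test numbered 35 in WM164 cells, with 17 and 18 by the TPM fits, and 24 in SKMEL28 cells, with 11 and 11. In A375 cells the count of 1 became 4 with DESeq2, 7 in the model of all libraries, 5 without a filter, 0 with at least 10 counts, 0 by both TPM fits, and 1 to 6 without 1 library. The cause of these shifts was not tested.

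Same-numbered GFP and MAFG libraries deviated from their group means with correlations of -0.117 to 0.0474, so the numbers did not pair them, and not every library correlated best with its own number. With the replicate number as a block, 3 members passed in WM164 cells (CHGB had an adjusted p of 0.0586), 1 difference between lines passed (CPE had 0.138), and 64 genes were called in A375 cells. Low counts limit PCSK1, CPE, SCG5 and CHGB.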
